A study of Homo sapiens with 12 samples.

Results

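The p53 family and target genes examined here were TP73, CDKN1A, MDM2, GADD45A, BBC3, SESN1, TP53INP1, BTG2 and RRM2B, 9 of the 63568 genes in the table of total reads. They were taken by name, through the Ensembl identifiers that carry these symbols, with no threshold on their values. All 9 passed the filter on low counts and were among the 25249 genes tested. RNA was sequenced in bulk from MDA-MB-231, a triple negative breast cancer cell line whose p53 is mutant, labelled WT in genotype and carrying a green fluorescent protein fused to a histone in the nuclei. The cells were grown as 3D cultures in Matrigel, a gel of basement membrane proteins, and were released from it with collagenase and dispase before lysis. There were 12 libraries in 6 conditions of 2 replicates: untreated cells of day 2 (C1), untreated cells of day 4 (C2), and cells given Paclitaxel at 0.0005, 0.005, 0.05 or 0.5 μM on the second day and taken on day 4. Paclitaxel is a taxane that stabilises microtubules and arrests cells in mitosis. The untreated cells of day 4 served as the control of all 4 doses, so the comparisons at different doses are not independent.

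The transcription factor p53 answers to DNA damage and other stress by switching on genes that arrest the cell cycle, trigger apoptosis or help in repair, among them CDKN1A, BBC3 and RRM2B. MDM2 is both a target of p53 and the ubiquitin ligase that marks it for destruction, which closes a feedback loop. Many of these genes also have other regulators, such as p73 and p63, the relatives of p53, E2F factors and the stress kinase pathways, and can therefore be expressed in cells without a working p53.

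Libraries held 38380629 to 79169121 counts, with a median of 65977095.5. The cells carried markers of the line, with VIM at 797 to 1370 CPM (counts scaled to the size of the library) and CD44 at 237 to 388 CPM over the 12 libraries, while ESR1 stayed at or under 0.46 CPM and CDH1 at or under 0.201 CPM. Of the other genes expected to be low in the line, PGR was at most 0.0867 CPM, EPCAM was at 4.37 to 6.77 CPM and ERBB2 at 26.6 to 52.4 CPM. Among markers of other cell types, DCN and LUM of fibroblasts did not exceed 0.153 and 0.505 CPM, PTPRC and CD68 of leukocytes 0.281 and 0.225 CPM, and CDH5 of endothelium 0.463 CPM. PDGFRA, also listed for fibroblasts, ran from 0.115 to 2.16 CPM, with means of 0.122 CPM in C2 and 2.08 CPM at 0.05 μM, and its part in the results was not tested. The replicates of C1 differed more than those of any other condition: over 11193 genes of at least 8 CPM, the SD of the log2 difference between replicates was 0.576 in C1 and 0.0907 to 0.23 elsewhere. Calls of the members and counts of the p53 lists at single doses are therefore given with and without the C1 libraries. In bulk RNA, fewer cells expressing a gene and less RNA of that gene per cell cannot be told apart.

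Levels between genes were compared as RPKM, which is CPM divided by the exon length in kilobases, averaged over the 12 libraries. GADD45A had the highest level of the 9 members at 31.7 RPKM, followed by CDKN1A at 24.5, RRM2B at 10.2 and MDM2 at 5.30 RPKM. The other members were lower, with BTG2 at 2.27, BBC3 at 1.99, SESN1 at 1.41, TP53INP1 at 1.05 and TP73 at 0.285 RPKM. TP73 rested on 62 to 424 counts per library.

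**Figure D1:**
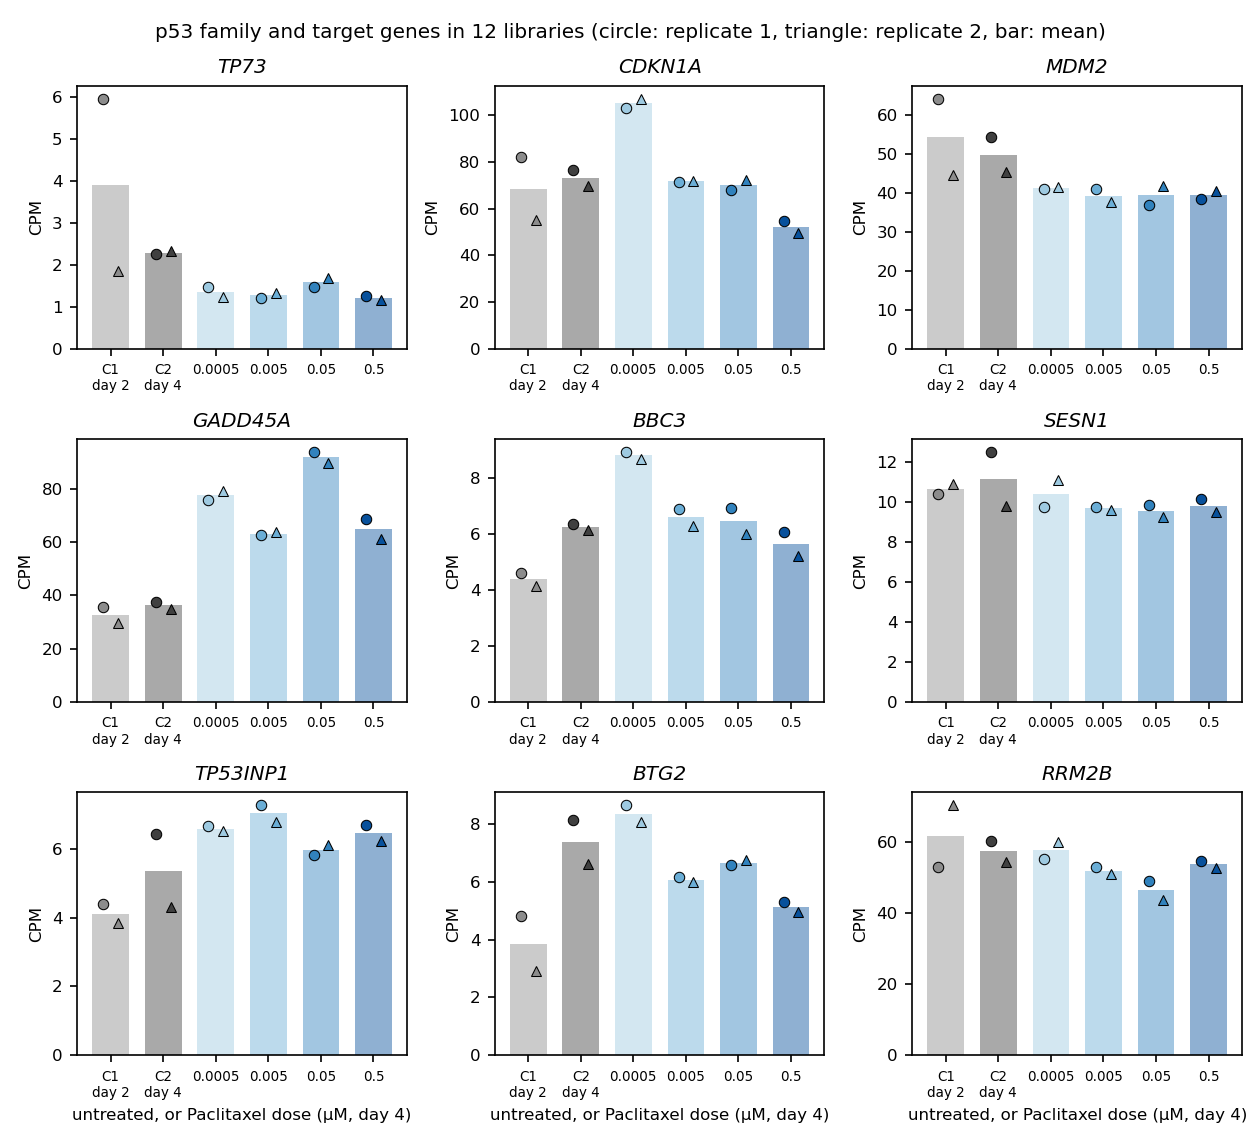
CPM of each of the 9 members (vertical axis, starting at 0) in untreated cells of day 2 (C1), untreated cells of day 4 (C2) and cells at 4 Paclitaxel doses in μM. Circles are replicate 1, triangles replicate 2 and bars the mean. GADD45A lies at 61.0 to 94.0 CPM in the treated libraries and at 29.6 to 37.6 CPM in the untreated ones, and TP73 in C1 shows the widest gap between replicates, 5.96 and 1.85 CPM.

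TP73 encodes p73, a transcription factor of the p53 family that binds many of the same sites. It was measured at 5.96 and 1.85 CPM in C1, 2.24 and 2.32 CPM in C2, 1.48 and 1.22 CPM at 0.0005 μM, 1.20 and 1.33 CPM at 0.005 μM, 1.48 and 1.68 CPM at 0.05 μM, and 1.25 and 1.16 CPM at 0.5 μM. All 8 treated libraries were below all 4 untreated ones, and the replicates of C1 lay further apart than any treated library lay from C2. Across the 8 treated against the 4 untreated libraries TP73 fell by 1.21 on the log2 scale (SE 0.239, adjusted p = 0.00175). This p, like all adjusted p-values below, is from the quasi-likelihood test of edgeR, adjusted by Benjamini and Hochberg's method over all tested genes. With the untreated cells of day 4 as the only control, the log2 fold change was -0.74 (SE 0.177, adjusted p = 0.0125), and without C1 replicate 1 alone it was -0.67 (SE 0.158, adjusted p = 0.00877). Single doses were at -0.53 (0.05 μM) to -0.92 (0.5 μM), with an SE of 0.386 to 0.399, and did not pass the test with all libraries in the fit.

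MDM2, the ubiquitin ligase that restrains p53, showed the same order of treated and untreated libraries at a far higher level. Its level was 64.3 and 44.7 CPM in C1, 54.4 and 45.4 CPM in C2, 41.0 and 41.6 CPM at 0.0005 μM, 41.0 and 37.6 CPM at 0.005 μM, 37.1 and 41.8 CPM at 0.05 μM, and 38.6 and 40.7 CPM at 0.5 μM. The 8 treated libraries again lay below the 4 untreated ones, and each dose overlapped at least 1 other dose. MDM2 fell by 0.39 on the log2 scale in treated against untreated libraries (SE 0.098, adjusted p = 0.00873), and by 0.31 against the untreated cells of day 4 only (SE 0.091, adjusted p = 0.0332).

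TP73 and MDM2 were the members called lower in treated cells, and an annotated start of each held the same 8-letter word. Promoter windows were taken from RefSeq on GRCh38.p14 as the 250 bases before each annotated start. Of the 9 members 6 had entries, with 13 windows in all, and GADD45A, TP53INP1 and RRM2B had none. The stretches below are 120 bases long and end 131 bases before a start of the gene, on the plus strand at chr1:3652266-3652385 for TP73 and chr12:68807922-68808041 for MDM2. Capitals mark GCGCCAAA, the reverse complement of TTTGGCGC, a form of the E2F binding motif.
TP73: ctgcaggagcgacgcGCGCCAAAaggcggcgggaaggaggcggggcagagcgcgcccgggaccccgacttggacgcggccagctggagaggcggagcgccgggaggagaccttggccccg
MDM2: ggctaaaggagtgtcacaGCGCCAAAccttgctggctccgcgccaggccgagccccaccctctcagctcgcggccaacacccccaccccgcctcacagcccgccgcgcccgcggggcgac
The word begins 235 bases before the start in TP73 and 232 bases before it in MDM2. On either strand TTTGGCGC stood in 0.55% of the 35116 windows of all genes, and any of the 4 E2F words TTTCCCGC, TTTCGCGC, TTTGCCGC and TTTGGCGC in 2.79%. Of the 13 member windows 3 held it, 1 of TP73 and 2 overlapping ones of MDM2. The words were searched with the expression values known, and a match describes the letters, not a site in use.

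Genes of DNA replication, many of them E2F targets, were lower in the same libraries. All 18 genes of an S phase list were called lower in treated against untreated libraries, beside 11.3% of all tested genes. Their median log2 fold change was -0.90 beside -0.002 over all tested genes. With C2 as the only control, 14 of the 18 were called lower and none higher, beside 6.42% and 7.16% of all tested genes. The median was then -0.56 beside 0.03. The list was also lower in C2 than in C1, with a median of -0.49 beside -0.02. None was called there, and 15 of the 18 had an unadjusted p under 0.05, all lower, where 10% of all tested genes lay. Their summed level was 1951 to 2561 CPM in C1, 1544 to 1622 CPM in C2 and 977.3 to 1199 CPM in treated libraries. The part of the S phase genes in the values of TP73 and MDM2 was not tested.

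GADD45A, a stress sensor that binds PCNA and activates stress kinases, was the member with the largest rise, and its level rose at every dose. Its libraries stood at 35.4 and 29.6 CPM in C1, 37.6 and 34.9 CPM in C2, 75.9 and 79.2 CPM at 0.0005 μM, 62.5 and 63.9 CPM at 0.005 μM, 94.0 and 89.9 CPM at 0.05 μM, and 68.9 and 61.0 CPM at 0.5 μM. All 8 treated libraries were above all 4 untreated ones. In order of the mean, C1 and C2 overlapped, as did 0.005 and 0.5 μM, while 0.0005 μM (77.6 ± 2.34 CPM, SD, n = 2) and then 0.05 μM (91.9 ± 2.91 CPM, SD, n = 2) stood clear of these and of each other.

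Against C2, the log2 fold change of GADD45A was 1.10 at 0.0005 μM (a fold of 2.14, SE 0.138, adjusted p = 0.00113) and 0.80 at 0.005 μM (a fold of 1.74, SE 0.137, adjusted p = 0.00931). It reached 1.34 at 0.05 μM (a fold of 2.53, SE 0.138, adjusted p = 0.000221) and was 0.84 at 0.5 μM (a fold of 1.79, SE 0.137, adjusted p = 0.00556). The response did not follow the order of the doses, and its slope per 10-fold dose was -0.02 on the log2 scale (SE 0.063, adjusted p = 0.913). Without 1 of the 2 libraries of either arm at 0.005 μM the adjusted p was 0.0894 to 0.102, and at 0.5 μM it was 0.0669 without C2 replicate 1, 0.0578 without C2 replicate 2 and 0.06 without the treated replicate 1. The log2 fold change in those fits remained 0.72 to 0.89.

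GADD45A was the only member called at any dose in the fit of all 12 libraries, which makes 1 of 9 called higher and 0 of 9 called lower at each dose. Of all tested genes, the lowest dose called 1.87% higher and 0.479% lower, 0.005 μM called 2.50% and 0.776%, 0.05 μM called 5.09% and 3.23%, and the highest dose called 4.36% and 1.96%. At an unadjusted p under 0.05 the members numbered 3, 2, 1 and 4 at the 4 doses in rising order, where 17%, 18.7%, 23.7% and 22.9% of all tested genes lay. The median log2 fold change of the 9 members was 0.18, -0.14, -0.14 and -0.19 at these doses, beside -0.01, 0.04, -0.01 and 0.04 over all tested genes. DESeq2 also called GADD45A and no other member at each dose.

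The fit without both C1 libraries was added after the counts were seen, because a common estimate of spread takes in the distance between the C1 replicates. Leaving them out lowered the biological coefficient of variation from 15.6% to 10.7%, and more members passed the test against C2. At the lowest dose 4 of 9 passed (CDKN1A, GADD45A and BBC3 higher, TP73 lower), beside 10.3% of all 25109 tested genes in either direction. At 0.005 μM 2 passed (GADD45A higher, TP73 lower) beside 12.7%, and at 0.05 μM 1, GADD45A, beside 19.2%. The highest dose had 5 (GADD45A higher, TP73, CDKN1A, MDM2 and BTG2 lower) beside 20.0%.

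**Figure D2:**
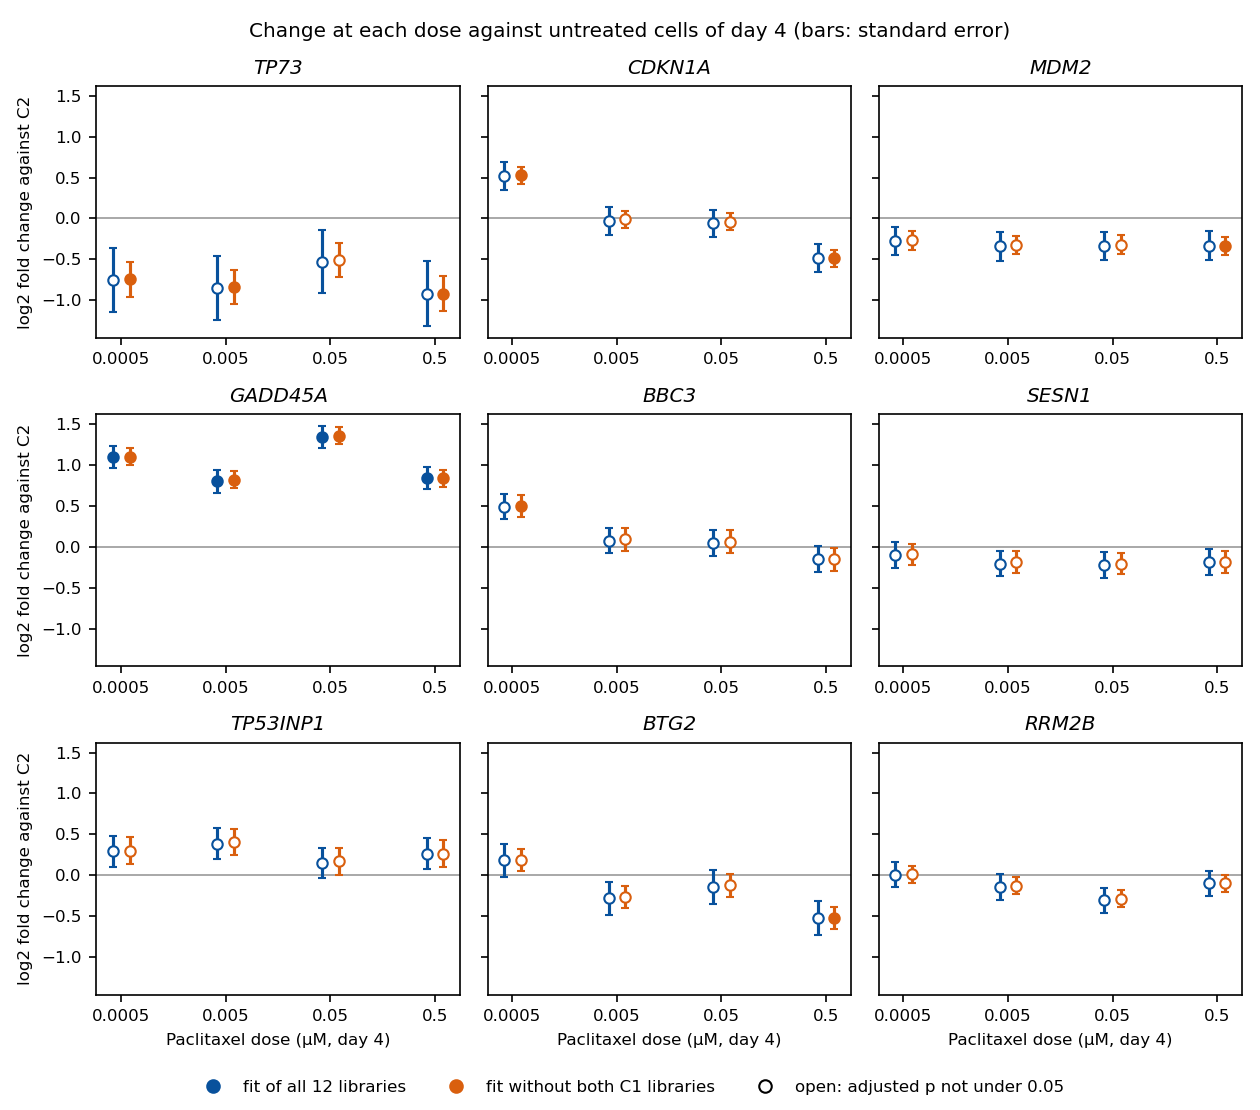
Log2 fold change against C2 (vertical axis) at each Paclitaxel dose for the 9 members, with the standard error as bars. Blue points are from the fit of all 12 libraries and orange points from the fit without both C1 libraries, and open points have an adjusted p of 0.05 or more. Point positions barely differ between the fits, the bars are shorter without C1, and GADD45A is filled at all 4 doses in both.

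CDKN1A encodes p21, the inhibitor of cyclin-dependent kinases that is the best known arrest gene of the p53 response. CDKN1A stood at 82.0 and 55.1 CPM in C1, 76.5 and 69.8 CPM in C2, 103 and 107 CPM at 0.0005 μM, 71.6 and 72.0 CPM at 0.005 μM, 67.9 and 72.4 CPM at 0.05 μM, and 54.9 and 49.7 CPM at 0.5 μM. The lowest dose stood above every other library and the highest dose below every other library, while the middle doses overlapped both untreated conditions. Against C2 the log2 fold change was 0.52 at 0.0005 μM (SE 0.171, adjusted p = 0.143) and -0.49 at 0.5 μM (SE 0.171, adjusted p = 0.116), and neither passed the test with all libraries. Without both C1 libraries the same contrasts gave 0.53 (SE 0.104, adjusted p = 0.0045) and -0.49 (SE 0.104, adjusted p = 0.00451). The 8 treated against the 4 untreated libraries gave 0.08 (SE 0.179, adjusted p = 0.786), with the lowest and the highest dose on opposite sides of C2.

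Within the 8 treated libraries, where no untreated library enters, CDKN1A fell with dose by 0.31 on the log2 scale per 10-fold dose (SE 0.042, adjusted p = 0.00105). This was the steepest slope of the 9 members, and it passed the test in all 14 alternatives run, between -0.32 and -0.28 with adjusted p of at most 0.0198. In all, 3 of 9 members were called lower along dose and none higher, where 2.04% of all tested genes were called lower and 1.02% higher. The median slope of the 9 members was -0.03, beside 0.01 over all tested genes. All 9 slopes lay below 0, but those not called were only -0.046 to -0.013, with an SE of 0.034 to 0.077. Of these, the slopes of TP73, GADD45A and SESN1 changed sign in 3, 2 and 1 of 14 alternatives.

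BBC3, which encodes the pro-apoptotic protein PUMA, was the next member with a slope. BBC3 stood at 4.61 and 4.12 CPM in C1, 6.35 and 6.14 CPM in C2, 8.92 and 8.67 CPM at 0.0005 μM, 6.89 and 6.28 CPM at 0.005 μM, 6.92 and 5.98 CPM at 0.05 μM, and 6.05 and 5.21 CPM at 0.5 μM. Both libraries of the lowest dose exceeded the other 10, both C1 libraries were the lowest, and C2 lay inside the range of the middle doses. The slope per 10-fold dose was -0.20 (SE 0.047, adjusted p = 0.0355). It missed the threshold without either replicate of 0.0005 μM (adjusted p = 0.28 and 0.133), without replicate 2 of 0.5 μM (0.168) and with a replicate block (0.0509).

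BTG2, an antiproliferative gene that is also an early response gene, was measured at 4.80 and 2.92 CPM in C1, 8.14 and 6.61 CPM in C2, 8.67 and 8.06 CPM at 0.0005 μM, 6.16 and 5.99 CPM at 0.005 μM, 6.57 and 6.77 CPM at 0.05 μM, and 5.30 and 4.97 CPM at 0.5 μM. The lowest dose overlapped C2, and the highest dose lay below all other libraries of day 4. Its slope was -0.20 (SE 0.05, adjusted p = 0.0429) and missed the threshold in 6 of 14 alternatives, with adjusted p up to 0.325 without replicate 1 of 0.0005 μM. At 0.5 μM against C2 the log2 fold change was -0.52 (SE 0.206, adjusted p = 0.155), and without both C1 libraries -0.52 (SE 0.139, adjusted p = 0.015).

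Of 19 immediate early and heat shock genes, which the release of cells by warm enzyme digestion can also induce, 6 were called lower along dose and none higher, beside 2.04% and 1.02% of all tested genes, with a median slope of -0.13 beside 0.01. At an unadjusted p under 0.05 there were 11 lower and 0 higher along dose, where 18.3% of all tested genes lay, and DESeq2 called 10 lower and 0 higher. The 6 called by edgeR were the heat shock genes HSPA1A, HSPA1B, HSPA6 and DNAJB1, of which the HSPA1 pair is near-identical and may share reads, and the early response genes FOSB and ATF3. FOS, JUN, EGR1, IER2 and ZFP36 were among those that did not pass along dose. Against C2 the list had 1, 9, 10 and 11 genes called lower and 0, 0, 2 and 1 higher at the 4 doses in rising order. Of all tested genes, 0.479%, 0.776%, 3.23% and 1.96% were called lower and 1.87%, 2.50%, 5.09% and 4.36% higher. FOS was called lower at 0.005 μM (log2 fold change -0.96, SE 0.155, adjusted p = 0.00662). EGR1 had means of 119 CPM in C2, 489 CPM at 0.05 μM and 301 CPM at 0.5 μM. The summed level of the list was 2377 to 3294 CPM in C1 and 3506 to 4447 CPM in C2. In rising order of dose it was 3196 to 3656, 2481 to 2568, 3054 to 3131 and 2269 to 2565 CPM. Its part in the slopes of CDKN1A, BBC3 and BTG2 was not tested.

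**Figure D3:**
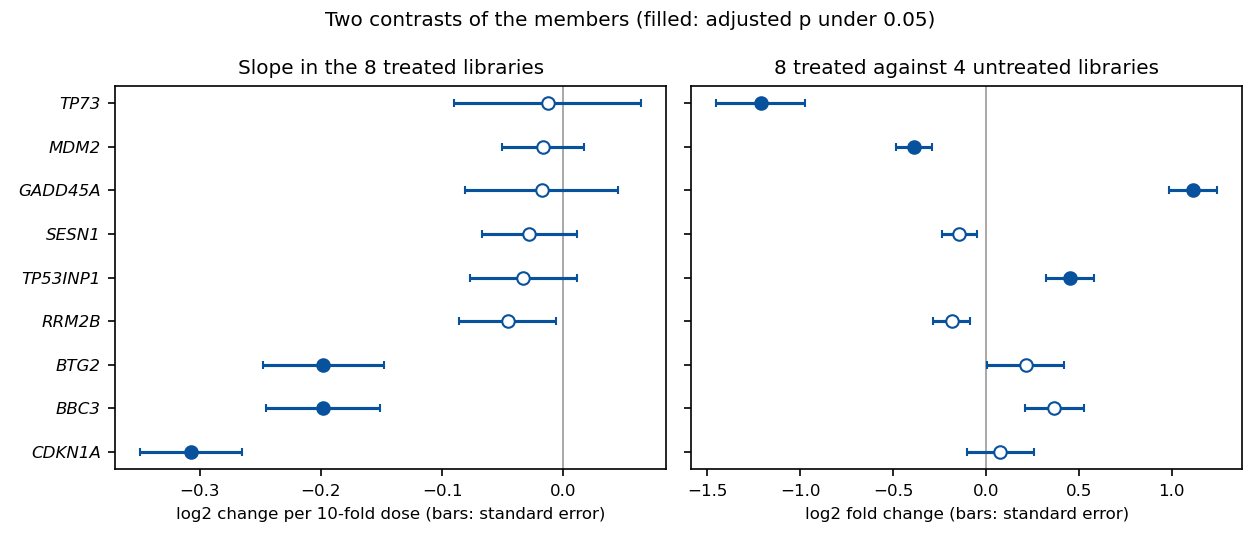
Left, slope of log2 expression per 10-fold dose in the 8 treated libraries. Right, log2 fold change of the 8 treated against the 4 untreated libraries. Each row is a member, bars are standard errors and filled points have an adjusted p under 0.05. CDKN1A, BBC3 and BTG2 are filled at left and open at right, and TP73, MDM2, GADD45A and TP53INP1 are open at left and filled at right.

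The starts of the 3 members that fell along dose are shown for comparison, each as the 120 bases before the first RefSeq start on GRCh38.p14. They lie at chr6:36678594-36678713 on the plus strand for CDKN1A, chr19:47232668-47232787 on the minus strand for BBC3 and chr1:203305399-203305518 on the plus strand for BTG2. Capitals mark GGGCGGG, the core of an SP1 box, and CCAAT, each on either strand.
CDKN1A: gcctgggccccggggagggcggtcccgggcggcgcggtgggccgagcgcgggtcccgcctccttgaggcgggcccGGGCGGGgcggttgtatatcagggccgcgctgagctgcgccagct
BBC3: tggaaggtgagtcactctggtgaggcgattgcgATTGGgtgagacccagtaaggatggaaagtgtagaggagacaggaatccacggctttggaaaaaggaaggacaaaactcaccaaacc
BTG2: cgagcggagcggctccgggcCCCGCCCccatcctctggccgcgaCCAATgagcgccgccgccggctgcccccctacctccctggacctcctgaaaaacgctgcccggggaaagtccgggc
Neither word stood in all 3 stretches. CCAAT stood in 32% and GGGCGGG in 31.5% of all windows, so either is common. A p53 half-site, the decamer that p53 and its relatives bind in pairs, was found in 1 of the 13 member windows, the third of SESN1, and in 5.57% of all windows. It is printed in capitals within 30 bases at chr6:109009018-109009047 on the minus strand, beginning 49 bases before that start.
SESN1: attgtcgtctGGACAAGTCTccacaagtca

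SESN1, a sestrin that restrains mTORC1 signalling and oxidative stress, was nearly level. It was measured at 10.4 and 10.9 CPM in C1, 12.5 and 9.81 CPM in C2, and between 9.26 and 11.1 CPM in the 8 treated libraries, all conditions overlapping at least 1 neighbour in the order of means. No contrast passed the test, and the log2 fold change against C2 was between -0.22 (SE 0.155) and -0.10 (SE 0.155) at the 4 doses.

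RRM2B, the subunit of ribonucleotide reductase that supplies nucleotides for repair outside S phase, did not pass the test in any contrast either. It was measured at 53.1 and 70.5 CPM in C1, 60.4 and 54.5 CPM in C2, 55.3 and 60.1 CPM at 0.0005 μM, 53.1 and 50.9 CPM at 0.005 μM, 49.2 and 43.6 CPM at 0.05 μM, and 54.7 and 52.7 CPM at 0.5 μM. The widest gap to C2 was at 0.05 μM, where the log2 fold change was -0.31 (SE 0.154, adjusted p = 0.255). RRM2, the subunit of the same enzyme used in S phase and a gene named after its values were seen, went from 154 ± 4.41 CPM (SD, n = 2) in C2 to between 83.8 and 102 CPM on average at the 4 doses, and fell by 1.11 on the log2 scale in treated against untreated libraries (SE 0.152, adjusted p = 9.98e-05). RRM2B in that contrast was at -0.18 (SE 0.1, adjusted p = 0.193). The difference between the changes of the 2 genes was not tested.

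TP53INP1, a stress-induced protein that promotes the pro-apoptotic phosphorylation of p53 and takes part in autophagy, was measured at 4.38 and 3.85 CPM in C1, 6.43 and 4.31 CPM in C2, 6.66 and 6.51 CPM at 0.0005 μM, 7.28 and 6.80 CPM at 0.005 μM, 5.83 and 6.11 CPM at 0.05 μM, and 6.69 and 6.22 CPM at 0.5 μM. Replicate 1 of C2 lay among the treated libraries, and the other 3 untreated libraries lay below all of them. The treated libraries were higher by 0.45 on the log2 scale than the 4 untreated ones (SE 0.13, adjusted p = 0.0178). With C2 as the only control the difference was 0.29 (SE 0.142, adjusted p = 0.19), and without C1 replicate 1 or C2 replicate 2 the adjusted p was 0.0627 or 0.0588.

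Over the 8 treated against the 4 untreated libraries, 2 of 9 members were called higher (GADD45A and TP53INP1) and 2 of 9 lower (TP73 and MDM2), where 13.1% of all tested genes were called higher and 11.3% lower. The median of the 9 members was 0.08, beside -0.002 over all tested genes. The 4 untreated libraries are of days 2 and 4, while all treated cells are of day 4. With the 2 untreated libraries of day 4 alone as the control, 1 member was higher and 2 were lower, beside 7.16% and 6.42% of all tested genes.

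Between the untreated days, 0 of 9 members were called in C2 against C1 by edgeR, 2 had an unadjusted p under 0.05, and DESeq2 called 1, BTG2. Of all tested genes edgeR called 0.321% higher and 0.00396% lower, 10% had an unadjusted p under 0.05, and DESeq2 called 271 of 25249. BTG2 was the member furthest from 0, with a log2 fold change of 0.91 (SE 0.21, adjusted p = 0.147). TP73 was at -0.82 (SE 0.376, adjusted p = 0.502) and turned to 0.30 without C1 replicate 1. BBC3 was at 0.51 (SE 0.161, adjusted p = 0.334).

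The wider p53 pathway was followed in 52 other target genes and 12 regulators, all of them tested. Among the 52 target genes, edgeR called 3, 0, 3 and 1 higher at the 4 doses in rising order and none lower, beside 1.87%, 2.50%, 5.09% and 4.36% of all tested genes called higher. At an unadjusted p under 0.05 the counts were 15, 5, 10 and 6 higher and 1, 3, 4 and 6 lower, where 17%, 18.7%, 23.7% and 22.9% of all tested genes lay in either direction, and DESeq2 called 6, 2, 5 and 1 higher and 1, 0, 0 and 1 lower. The median log2 fold change of the list was 0.09, 0.02, 0.00 and -0.001 in that order, beside -0.01, 0.04, -0.01 and 0.04 over all tested genes. Without both C1 libraries 13, 4, 11 and 4 of the 52 rose and 1, 3, 2 and 6 fell, beside 10.3%, 12.7%, 19.2% and 20.0% of all tested genes called in either direction.

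GDF15, a secreted stress cytokine, rose at 0.0005 μM from 33.4 ± 10.7 CPM in C2 to 85 ± 5.36 CPM (SD, n = 2 each), with a log2 fold change of 1.34 (SE 0.24, adjusted p = 0.0121). PMAIP1, which encodes the pro-apoptotic protein NOXA, rose at the same dose from 98 ± 0.558 to 194 ± 0.364 CPM (SD, n = 2 each; log2 fold change 0.98, SE 0.189, adjusted p = 0.0176). The transcriptional coregulator SERTAD1 rose there as well, from 52.5 ± 4.61 to 87 ± 0.914 CPM (log2 fold change 0.73, SE 0.147, adjusted p = 0.022). All 3 were thus highest on average at the lowest dose, as CDKN1A and BBC3 were.

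PRKAB1, the beta subunit of the energy sensor AMPK, had a profile closer to that of GADD45A, with means of 17 CPM in C2 and 27, 25.7, 34.3 and 29.4 CPM at the 4 doses in rising order. It passed the test at 0.05 μM (log2 fold change 1.02, SE 0.165, adjusted p = 0.00419) and at 0.5 μM (0.80, SE 0.164, adjusted p = 0.0175). GADD45G, a paralog of GADD45A, and PHLDA3, an inhibitor of AKT, passed at 0.05 μM with log2 fold changes of 1.29 (SE 0.309, adjusted p = 0.0246) and 1.48 (SE 0.372, adjusted p = 0.0312), both from levels that stayed under 1 CPM in every library. Without both C1 libraries PMAIP1 and PRKAB1 passed at all 4 doses, GDF15 and GADD45G at the 3 lower doses, SERTAD1 at 0.0005 and 0.05 μM, and PHLDA3 at 0.05 μM.

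Along dose, edgeR called 4 of the 52 target genes lower and none higher, beside 2.04% and 1.02% of all tested genes, with a median slope of -0.03. At an unadjusted p under 0.05 there were 17 lower and 3 higher, where 18.3% of all tested genes lay in either direction. DESeq2 called 7 lower and 1 higher, beside 1696 of all 25249 tested genes in either direction. The 4 called by edgeR were GDF15 (-0.34 per 10-fold dose, SE 0.048, adjusted p = 0.00106), the death receptor gene TNFRSF10B (-0.16, SE 0.036, adjusted p = 0.0283), the autophagy gene DRAM1 (-0.14, SE 0.037, adjusted p = 0.0456) and NINJ1, which acts in membrane rupture of dying cells (-0.19, SE 0.042, adjusted p = 0.0296). TNFRSF10B, DRAM1 and NINJ1 were named after their values were seen.

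**Figure D4:**
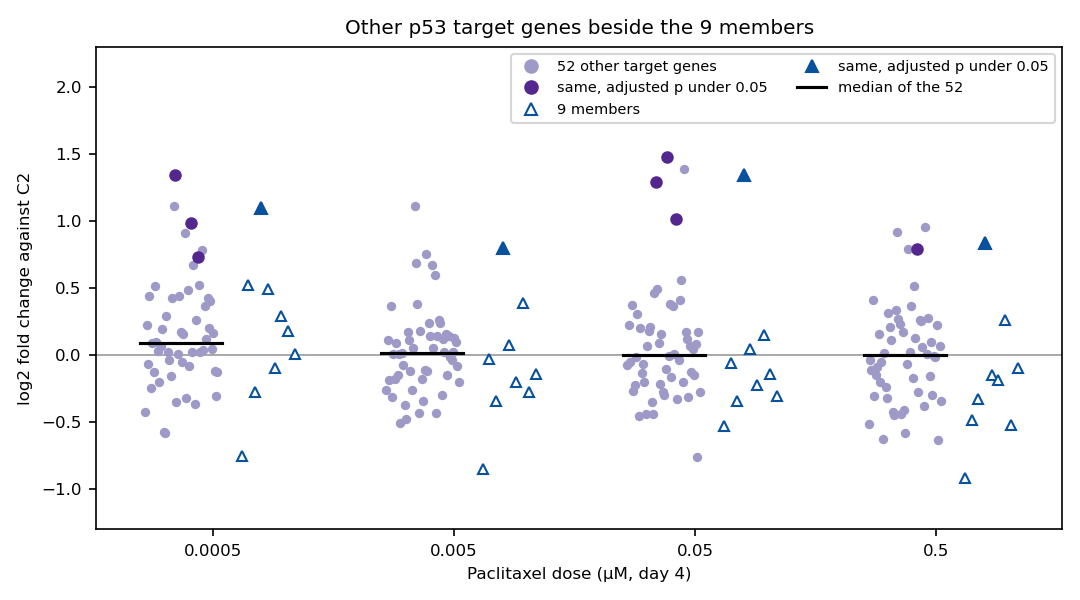
Log2 fold change against C2 (vertical axis) at each Paclitaxel dose for the 52 other p53 target genes (circles) and the 9 members (triangles) in the fit of all 12 libraries. Dark or filled symbols have an adjusted p under 0.05, and the black line is the median of the 52 genes, between -0.001 and 0.09. Both sets spread to either side of 0 at every dose.

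Of the 12 regulators of p53, none was called at any dose or along dose by edgeR with all libraries in the fit. At an unadjusted p under 0.05 there were 1 or 2 in each of these comparisons, where 17% to 23.7% of all tested genes lay. DESeq2 called 1 at the lowest dose and none in the others. Without both C1 libraries edgeR called 1 higher and 1 lower at the lowest dose (TP63 and HIPK2), 2 higher at each of the middle doses (TP63 and PPP1R13B), and 1 higher (PPP1R13B) and 3 lower (USP7, HIPK2 and PPP1R13L) at the highest dose. The shares of all tested genes called in that fit were 10.3% to 20.0%. In treated against untreated libraries 2 of the 12 were higher and 1 lower, beside 13.1% and 11.3% of all tested genes, so the counts were near that background. The 3 are named after their values were seen. The family member TP63 was higher by 0.99 on the log2 scale (SE 0.21, adjusted p = 0.00293), with means of 1.18 CPM in C1, 2.29 CPM in C2 and 4.03, 3.58, 3.49 and 2.93 CPM at the 4 doses in rising order. With C2 as the only control TP63 was the 1 regulator called higher, and none was called lower, beside 7.16% and 6.42% of all tested genes. PPP1R13B, which encodes the p53 cofactor ASPP1, was higher by 0.40 (SE 0.133, adjusted p = 0.0375), and the deubiquitinase USP7, which acts on MDM2, was lower at -0.35 (SE 0.123, adjusted p = 0.0479).

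Genes whose profile over the 12 libraries was most like that of a member were sought among 11088 to 11089 genes of at least 5 CPM, by Pearson's r of log2 CPM, for the 3 members with the smallest p in treated against untreated libraries. For GADD45A these were NFKBIE (r = 0.974), OSGIN1 (0.972) and ARC (0.97). For TP73 they were DNMT1 (0.983), DDX56 (0.98) and INCENP (0.979), and for MDM2 they were ZNF106 (0.973), SP1 (0.969) and AREL1 (0.968). The points share libraries and scaling factors, and C1 replicate 1 lies far from the rest for TP73.

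On GRCh37, the build used for counting, TP73 lies at chromosome 1, 3569080 to 3652765, CDKN1A at chromosome 6, 36644237 to 36655114, MDM2 at chromosome 12, 69201957 to 69239324, and GADD45A at chromosome 1, 68150884 to 68154017. BBC3 lies at chromosome 19, 47724079 to 47736023, SESN1 at chromosome 6, 109305512 to 109416049, and BTG2 at chromosome 1, 203274619 to 203278730. Whether strand was used in counting is not given in the sources used here, so reads of genes on the opposite strand may enter 6 members. By exon bases the overlap was 9.35% of TP73 with TP73-AS1, 9.45% of MDM2 with a long noncoding RNA and 1.6% with the carboxypeptidase gene CPM, 4.87% of CDKN1A with DINOL, 4.99% of SESN1 with a long noncoding RNA, 3.99% of TP53INP1 with NDUFAF6 and 2.51% of BBC3 with a microRNA gene, and none of GADD45A, BTG2 or RRM2B. A processed pseudogene on the same strand covers 5.29% of the exon bases of MDM2.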

How the data were processed

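RNA was measured in 12 libraries, 2 biological replicates in each of 6 conditions. The authors checked reads with FastQC 0.11.9, trimmed them with Trimmomatic 0.39, aligned them to GRCh37 with STAR 2.7.5, discarded reads with several alignments and assigned the rest to exons with Rsubread, and the deposited values are these raw counts, neither normalized nor pooled. The 12 single-library files were checked and hold the same counts as the table used here. Symbols were matched by Ensembl identifier.

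Counts were filtered by filterByExpr on the 6 conditions, scaled by TMM and tested in R 4.3.3 with edgeR 4.0.16 (quasi-likelihood F test, robust, two-sided, Benjamini-Hochberg adjustment over all tested genes, called under 0.05). Each dose and C1 were compared with C2 in 1 fit of 12 libraries with 6 residual degrees of freedom. Separate fits gave the 8 treated against the 4 untreated libraries and the slope on log10 dose in the 8 treated ones. A single-gene exact permutation test of 2 against 2 libraries cannot go below p = 0.333 and was not used. SE was taken as the size of a log2 fold change over the root of its F statistic. CPM uses TMM library sizes, log2 CPM a prior count of 2, and RPKM the union of GENCODE exons on GRCh37.

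In simulated counts with 200 genes changed by 1.5 log2 units, 94% to 95.5% were recovered at single doses and 100% in treated against untreated. For the slope, 97% of genes changed by 0.5 per 10-fold dose were recovered. The largest change of a member at a single dose was 1.34 and the steepest slope -0.31. These rates therefore do not show how often changes of the members' size would be found.

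Members, lists, motifs and tests were chosen with earlier results of these data known, and lists were compiled by hand. All members were named. Of the target and regulator lists, genes called at 1 dose or more were named, at most 12. Alternatives were DESeq2 1.42.0, RLE scaling, other count filters, no robust estimation, a replicate block, fewer samples and each library left out. Replicate numbers were not used as pairs in the main fits. Same-numbered deviations correlated at -0.597 to 0.697 over 15 pairs of conditions, and 8 exceeded 0.1. With a replicate block, 420 of 25249 genes were called along dose, against 773 without it. Whether some same-numbered libraries shared a batch was not tested.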

Additional observations from a re-analysis of the deposited data

How the results depend on the processing

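In the comparisons where a member was called, its log2 fold change or slope kept its sign in every alternative. In comparisons where it was not called the sign could change, as for TP73 in C2 against C1. The number of members called, 1 at each dose with all 12 libraries, moved with the libraries that share the estimate of spread, and so did the number called among all tested genes (592, 827, 2100 and 1596 of 25249 at the 4 doses in rising order). At 0.0005, 0.005 and 0.5 μM it was 3, 2 and 3 with only the 4 libraries compared (2624 of 21835, 2592 of 23502 and 2578 of 22518 genes called), and 4, 2 and 5 without both C1 libraries, added after the counts were seen. Without a count filter it was 2 at 0.005 μM and 2 at 0.5 μM. Leaving out 1 library at a time gave 1 to 4, 0 to 2, 1 to 2 and 0 to 5 members at the 4 doses in rising order. The higher counts came without either C1 library, except that at 0.05 μM the count of 2 came without C1 replicate 1 only, and the counts of 0 without either C2 library, without either treated library at 0.005 μM, or without treated replicate 1 at 0.5 μM. Calls over all genes moved with them: at 0.5 μM they were 5046 of 26797 without C1 replicate 2, where 5 members were called, and 129 of 26880 without C2 replicate 1, where none was called.

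For C2 against C1 the count of 0 became 1 with DESeq2, 1 without a count filter and 0 to 2 with 1 library left out, 2 being reached without C1 replicate 2 (TP73 and BTG2). For treated against untreated libraries it stayed at 3 to 4 with 1 library left out. The slope count of 3 became 1 with a replicate block, which kept CDKN1A, and 1 to 3 with 1 library left out, 1 being reached without either replicate at 0.0005 μM or replicate 2 at 0.5 μM. The block changed no other count. The cause of these changes was not tested.

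With 2 libraries per condition and all 12 in the fit, log2 fold changes of 0.52 (CDKN1A at 0.0005 μM) and -0.92 (TP73 at 0.5 μM) were not called, so a missing call does not show that a gene kept its level. TP73 rested on 62 to 424 counts per library, and its SE at single doses was 0.386 to 0.399 with all libraries and 0.206 to 0.214 without both C1 libraries.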

Other observations

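Of 18 genes of G2 and M phase, 6 were called higher along dose in the 8 treated libraries and none lower, beside 1.02% and 2.04% of all tested genes, with a median slope of 0.16 per 10-fold dose, beside 0.01 over all tested genes. In treated against untreated libraries 8 of the 18 were called lower and none higher, beside 11.3% and 13.1%, and with C2 as the only control 6 were lower and none higher, beside 6.42% and 7.16%. Their summed level was 3665 to 3817 CPM in C1, 2512 to 2560 CPM in C2, 1993 to 2343 CPM at 0.0005 μM, 1905 to 1967 CPM at 0.005 μM, 2030 to 2395 CPM at 0.05 μM and 2472 to 2710 CPM at 0.5 μM. CCNB1, the mitotic cyclin B1, rose by 0.24 on the log2 scale per 10-fold dose (SE 0.056, adjusted p = 0.0314 by edgeR) and AURKA, a mitotic kinase, by 0.21 (SE 0.053, adjusted p = 0.0476), both named after their values were seen. None of the 18 S phase genes was called along dose by edgeR, with a median slope of -0.01. At an unadjusted p under 0.05 there were 4 of them, all lower, where 18.3% of all tested genes lay in either direction, and DESeq2 called 1. The difference between these 2 lists was not tested.

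Among the 52 other p53 target genes, 11 were called higher and 3 lower in treated against untreated libraries, beside 13.1% and 11.3% of all tested genes. With C2 as the only control the counts were 5 and 2, beside 7.16% and 6.42%. The 11 included the 6 genes named at single doses, and the rest were PLK2, BTG1, SESN2, SPATA18 and ANKRA2. The 3 lower ones were E2F7, FDXR and RAP2B. SESN2, a paralog of SESN1, was higher by 0.62 on the log2 scale (SE 0.157, adjusted p = 0.00905), where SESN1 was at -0.14 (SE 0.094, adjusted p = 0.279). With C2 as the only control SESN2 was not among the genes called. The difference between the changes of the 2 sestrin genes was not tested.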
